A study of Homo sapiens with 20 samples.

Results

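The genes described here are 48 genes of mitosis, taken from the gene table by name as the cyclins, mitotic kinases, kinesins, kinetochore proteins and related factors that are transcribed in G2 and act in M phase of the cell cycle. They are 48 of the 60719 genes listed, and all 48 were among the 18387 genes that passed the filter on low counts. Polyadenylated RNA was sequenced from Jurkat cells, an established human T lymphoblast line grown from a T cell leukemia (WT), and from JinB8, a somatic mutant derived from Jurkat cells that is deficient in CD47 (CD47-). CD47 is a cell surface receptor for thrombospondin-1 (TSP1), a secreted matrix glycoprotein, and the study asked how transcripts depend on CD47 while T cells are activated. In both lines, cells were plated in serum-free medium for 1, 3 or 6 h on immobilized antibodies against CD3 and CD28, which trigger the T cell receptor and its costimulator (CD3+CD28), on these antibodies with 1 μg/ml TSP1 added (CD3+CD28+TSP1), or with TSP1 and no antibodies (TSP1). An untreated library was analysed for each line at 1 h only. Each line therefore gave 10 libraries, namely 4 at the earliest time and 3 at each later one, and each combination of line, treatment and time was sequenced once. JinB8 is a single mutant line, so the loss of CD47 and any other difference between it and WT cells cannot be told apart, nor can the time of treatment and the time spent in the serum-free medium.

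Entry into mitosis is driven by CDK1 bound to A- and B-type cyclins. The CDC25 phosphatases and the kinases PLK1 and Aurora A activate it, kinesins and microtubule-binding proteins build the spindle, and kinetochores attach the chromosomes to it. A checkpoint built on TTK, BUB1, BUBR1, BUB3 and MAD2 holds back CDC20 and the anaphase-promoting complex (APC/C) until the attachments are made, after which cyclin B and securin are destroyed and the cells divide. Most of these genes are kept silent early in the cell cycle by the DREAM complex and are switched on in G2 by B-MYB with MuvB and by FOXM1, so that in a proliferating lymphoblast culture their mRNA levels follow the cells in G2 and M. In bulk RNA of this kind, fewer cells in G2 and M cannot be told apart from less of each mRNA per cell.

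Library totals ranged from 16107921 to 31737616 expected counts, and the members' own counts ran from 241 for CDC25C to 38270 for TOP2A. Levels are given as CPM, counts scaled to a common library size with TMM factors, and are relative within a library. All 12 T cell markers examined passed the filter in these cells, with summed levels of 2265 to 3240 CPM in WT against 2372 to 3303 CPM in CD47- libraries. Single markers differed between the lines: TRAC was at 118 to 287 CPM in WT against 14.7 to 30.8 CPM in CD47- libraries, and CD28 at 22.9 to 62.7 against 212 to 278 CPM. B cell markers summed to 34.6 to 53.5 CPM in WT against 7.02 to 14.1 CPM in CD47- libraries, most of it CD79A. CD47 mRNA itself was at 250.3 to 371 CPM in WT against 123 to 165 CPM in CD47- libraries. The CD47- CD3+CD28+TSP1 library at 3 h stood apart from its group and had the lowest total of all 20 libraries. Its genes lay at a median distance of 0.293 (log2) from the mean of the other libraries of the group. The next largest such distance was 0.206, in the CD47- TSP1 library at 3 h, for which that mean includes the library that stood apart. The nuclear RNA MALAT1 was at 6015 CPM in the CD3+CD28+TSP1 library against 2844 and 3037 CPM in the other 2 libraries of the group. The counts over all 48 members in these comparisons over time, at 3 h and between treatments are therefore given with and without it, and the counts by role with it only. Its part in those results was otherwise not tested.

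Promoters of genes of this kind are known to share short motifs through which they are controlled together, and those of the members are shown here for that reason. Of the 48 members, 41 matched an entry in the RefSeq promoter windows of GRCh38.p14, which span 250 bases before to 50 bases after a transcription start. A gene with several windows was counted once. The cell cycle genes homology region (CHR), to which MuvB complexes bind, was searched as TTTGAA or TTCGAA on both strands, and the CCAAT box, bound by NF-Y, as CCAAT or its complement ATTGG. A CHR element lay in a window of 32 of the 41 members (78.0%) against 19.5% of all 27305 genes in that table and 15.7% of the 11376 of them that were tested here. In the 100 bases before the start it was present in 19 members (46.3%) against 6.14% of all genes. A CCAAT box was found in 34 members (82.9%) against 39.7% of all genes, and 17 members (41.5%) had a CHR element in the 100 bases before the start together with a CCAAT box, against 2.48% of all genes. Below are the 120 bases before the start, 5′ to 3′ on the gene's strand, for CDC20 (chr1:43358861-43358980, plus strand), PLK1 (chr16:23678769-23678888, plus strand), MKI67 (chr10:128126424-128126543, minus strand), CDC25C (chr5:138331805-138331924, minus strand, the one of its 4 windows with a CHR element in this stretch) and CCNB2 (chr15:59105026-59105145, plus strand), with CHR elements and CCAAT boxes in capitals. The starts are those of RefSeq transcripts, while the gene positions given later are from GENCODE, whose outermost start lies further upstream for PLK1, CDC25C and CCNB2, so that the stretches of PLK1 and CDC25C lie inside the GENCODE gene and that of CCNB2 reaches into it.
CDC20: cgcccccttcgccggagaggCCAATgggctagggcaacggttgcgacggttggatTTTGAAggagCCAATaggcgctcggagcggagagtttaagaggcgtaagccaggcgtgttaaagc
PLK1: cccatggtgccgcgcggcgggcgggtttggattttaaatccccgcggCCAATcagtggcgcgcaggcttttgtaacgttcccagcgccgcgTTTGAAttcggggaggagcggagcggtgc
MKI67: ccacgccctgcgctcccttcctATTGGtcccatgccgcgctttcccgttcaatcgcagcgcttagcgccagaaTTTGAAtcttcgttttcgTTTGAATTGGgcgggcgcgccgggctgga
CDC25C: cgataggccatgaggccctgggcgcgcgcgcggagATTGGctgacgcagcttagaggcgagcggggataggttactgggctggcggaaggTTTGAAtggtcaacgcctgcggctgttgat
CCNB2: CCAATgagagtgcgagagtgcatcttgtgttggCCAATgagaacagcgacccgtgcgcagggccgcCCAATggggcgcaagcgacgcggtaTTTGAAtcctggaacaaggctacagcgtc
The CHR element began 65 bases before the start in CDC20, 29 in PLK1, 30 in CDC25C and 29 in CCNB2, and MKI67 had one at 47 and another at 29. The CHR element of MKI67 nearest to the start shares a base with an ATTGG, so that both appear as a single run of capitals. The window of CCNB1 held 2 CCAAT boxes and none of the searched CHR letters, and that of KIF2C held neither motif. A match to these letters is a description of the sequence and not evidence that a factor was bound in these cells.

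In WT cells the members split over time. From 1 h to 6 h, 6 members rose, namely CDC20, CCNB1, PLK1, BIRC5, UBE2C and KIF4A, 27 fell and 15 did not pass the test (edgeR's quasi-likelihood test, adjusted p below 0.05 over all genes), with a median log2 fold change of -0.30 over the 48. Of all genes tested, 24.8% rose and 23.6% fell in this comparison. At 3 h, 19 members were already lower than at 1 h and none was higher, against 16.1% and 16.5% of all genes, with a median of -0.14. From 3 h to 6 h, 6 members rose and 11 fell, against 18.2% and 16.7% of all genes. The 1 h libraries serve both the 3 h and the 6 h comparison, and the time groups mix treatments, so their spread includes treatment. Without the CD47- CD3+CD28+TSP1 library at 3 h, which enters the estimate of the spread, 4 members were higher and 23 lower at 3 h than at 1 h in WT cells. Of all genes in that fit, 19.4% were higher and 19.3% lower. From 1 h to 6 h, 10 members rose and 30 fell in it, against 26.7% and 26% of all genes. From 3 h to 6 h, 12 rose and 16 fell, against 21% and 19.4% of all genes, so that these risers were near the background.

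In CD47- cells nearly every member fell. From 1 h to 6 h, 46 members were lower, none was higher, and CCNB1 and CDC20 did not pass the test, with a median log2 fold change of -0.95 over the 48 members. Among all genes, 25.2% fell and 24.3% rose, with a median of -0.00. Already at 3 h, 33 members were lower and none was higher than at 1 h, against 18% and 17.1% of all genes, with a median of -0.40. Without the CD3+CD28+TSP1 library at 3 h, 32 members were lower at 3 h, with a median of -0.31 over the 48, and 46 were lower at 6 h. Of all genes in that fit, 16.1% and 27.1% were lower. From 3 h to 6 h, 38 members fell and none rose, against 18.1% and 16.1% of all genes. Without that library 41 fell, against 17.8% of all genes. Other measures of the libraries moved with time too. MALAT1 went from a range of 4250.2 to 5761 CPM at 1 h down to 2679 to 2844 CPM at 6 h in CD47- cells, and from 4569 to 7447 CPM down to 3025 to 3636 CPM in WT cells. The share of mitochondrial counts was 0.584 to 0.643% at 1 h and 0.380 to 0.423% at 6 h in WT cells, and 0.498 to 0.603% and 0.339 to 0.510% in CD47- cells, and their part in these results was not tested. As a share of all counts in a library, the 48 members together made up 1.19% ± 0.0725 (SD, n = 4) at 1 h, 1.07% ± 0.0299 (n = 3) at 3 h and 0.986% ± 0.00513 (n = 3) at 6 h in WT cells. In CD47- cells the share was 1.09% ± 0.0353 (n = 4), 0.885% ± 0.0127 (n = 3) and 0.543% ± 0.0127 (n = 3). The shares in the lines differed little at 1 h and were far apart at 6 h, where the highest CD47- library held 0.552% and the lowest WT library 0.983%.

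**Figure D1:**
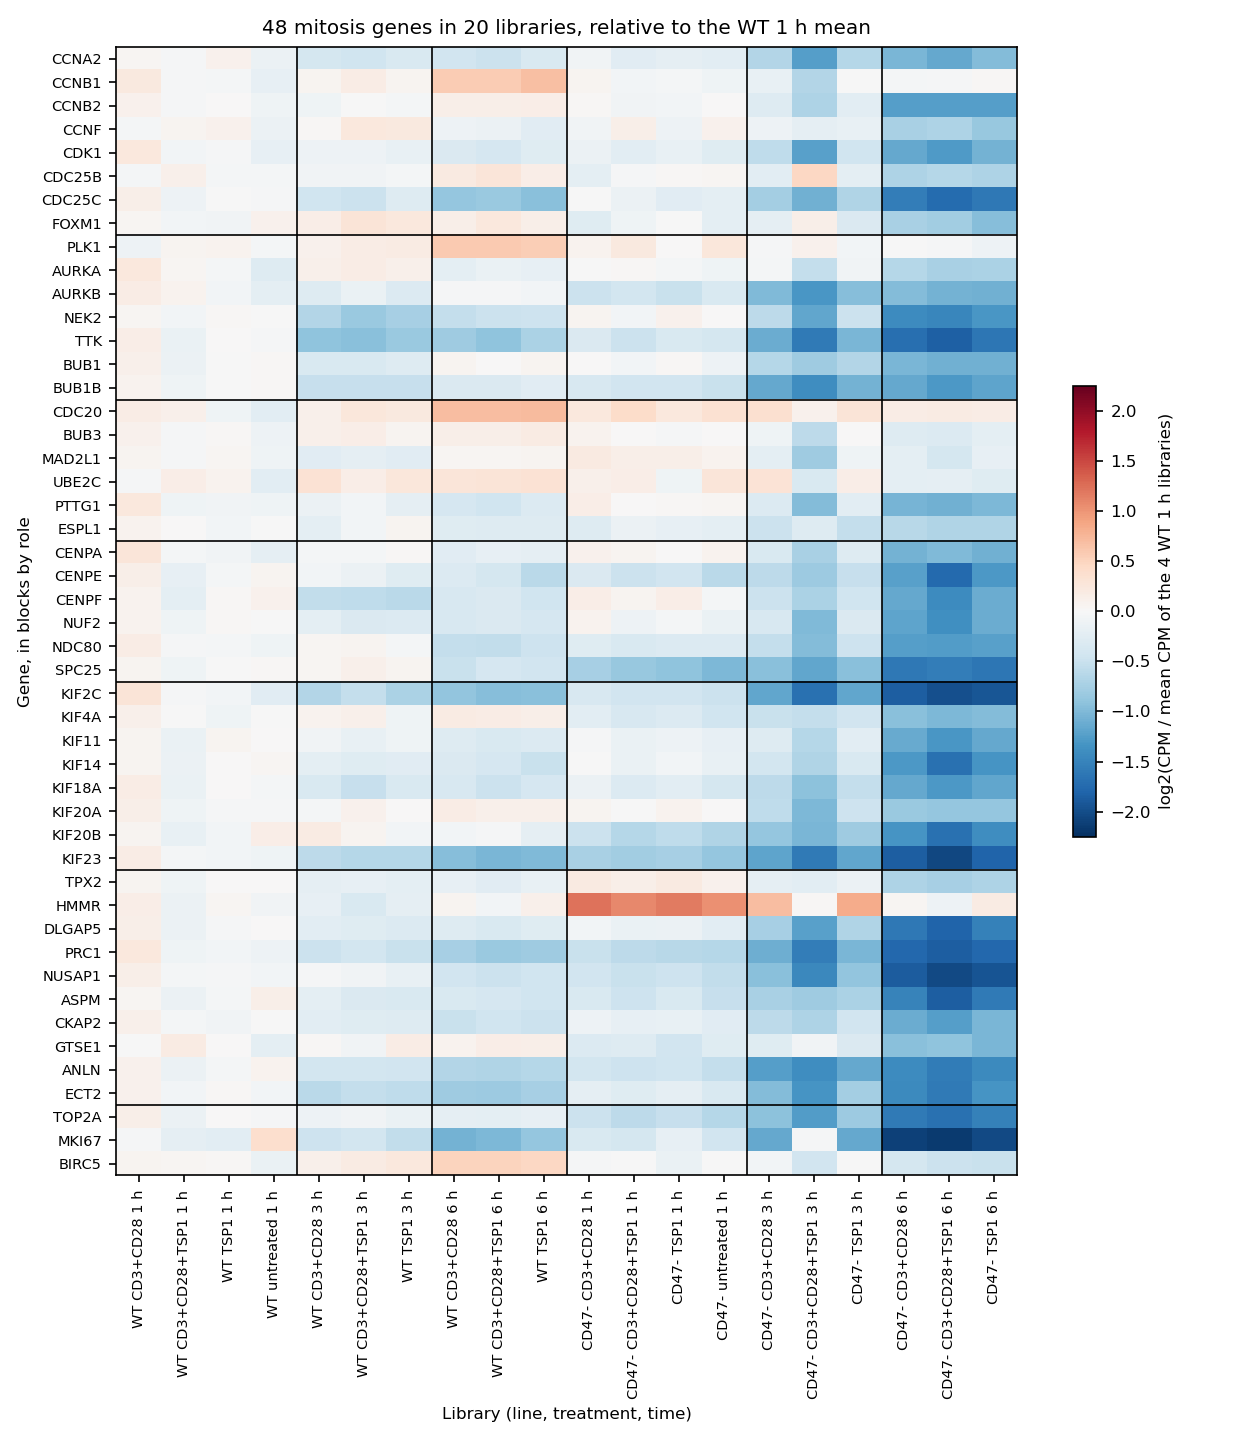
Heat map of the 48 members (rows, in 7 blocks by role) in the 20 libraries (columns, in 6 blocks by line and time), coloured by log2 of the CPM over the mean CPM of the 4 WT libraries at 1 h. CD47- libraries at 6 h are blue for nearly all members, CCNB1, CDC20 and PLK1 are reddest in the WT libraries at 6 h, and HMMR is red in the CD47- libraries at 1 h.

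Whether the change over time differed between the lines was tested as an interaction. From 1 h to 6 h, 43 members changed less upward or more downward in CD47- than in WT cells and none the other way, against 9.27% and 5.32% of all genes. Without the CD47- CD3+CD28+TSP1 library at 3 h, 46 passed in that direction and none the other way, against 13% and 7.79% of all genes. All 48 estimates were negative, with a median of -0.70 and a range from -1.35 for CCNB2 to -0.13 for KIF23. The 5 members that did not pass were ESPL1, SPC25, KIF23, PRC1 and MKI67. For KIF23 the interval of 2 SE each way was -0.38 to 0.12, so that a difference of the size seen for most other members lies outside it. For MKI67 it was -1.33 to -0.22, the widest of the 48, with an adjusted p of 0.0681. With upper-quartile in place of TMM scaling, 38 members passed in the same direction, against 6.73% of all genes. That scaling shifted the median of all genes from -0.01 to 0.07, and 53.0% of all genes called were higher in place of 36.5%. In the comparison of 3 h with 1 h, KIF20A, BUB1 and ANLN passed the interaction test and none was higher, against 2.05% and 1.5% of all genes. That count rests on single libraries. It was 2 without the CD47- CD3+CD28+TSP1 library at 3 h (KIF20A and NUSAP1), against 1.84% of all genes, with a median over the 48 of -0.16 in place of -0.25. It was 12 without the CD47- TSP1 library at 3 h, 6 without the WT CD3+CD28 library at 1 h, and 1 without any of 13 others, among them every WT library at 3 h and at 6 h. Under the other settings it ran from 3, without the untreated libraries, to 8 with DESeq2, where 1.49% and 3.5% of all genes were lower.

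**Figure D2:**
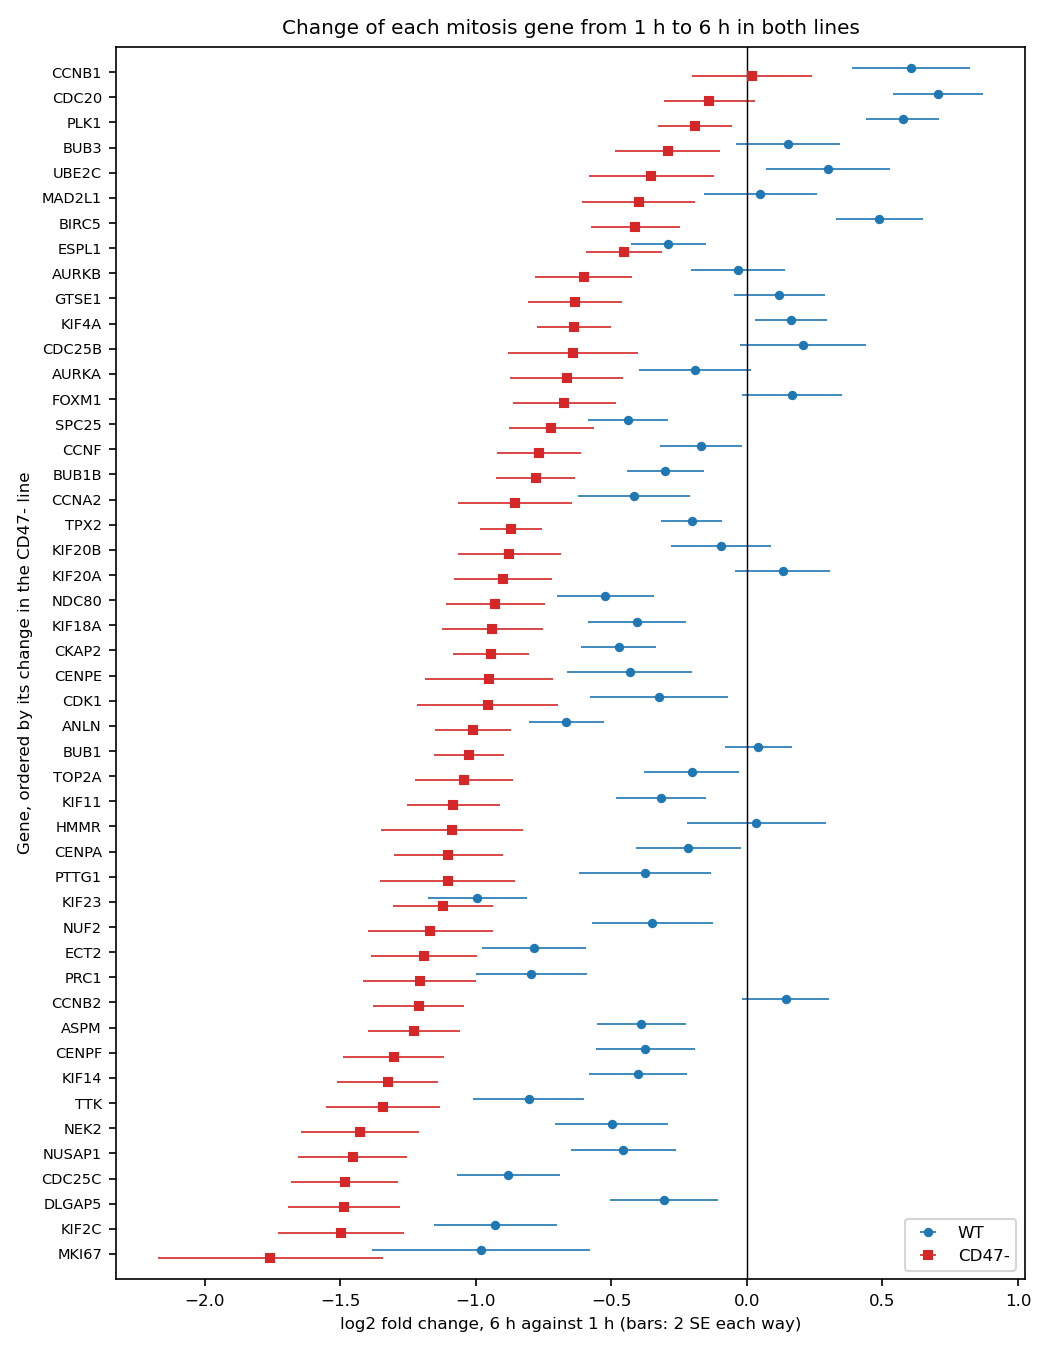
Log2 fold change from 1 h to 6 h (horizontal axis) of each of the 48 members (vertical axis) in WT cells (circles) and CD47- cells (squares), with bars of 2 SE each way. Every square lies to the left of its circle. The WT values run from -0.99 to 0.71 and the CD47- values from -1.76 to 0.02.

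Averaged over treatments and times, 26 members were lower and 1 member, HMMR, was higher in CD47- than in WT libraries, while 18.8% and 20.7% of all genes were lower and higher. The median over the 48 was -0.39. Without the CD47- CD3+CD28+TSP1 library at 3 h, 23 were lower and 1 was higher, against 19.6% and 20.9% of all genes, and the median was -0.36. With time as a term in the model 39 were lower and 1 was higher, but the shares of all genes went up too, to 26.9% and 29.5%. Lower members numbered 17 among the 6 activated pairs of libraries and 3 among the 4 pairs without antibodies, where fewer libraries enter the test and 11.3% and 6.60% of all genes were lower. The 3 of 48 are close to that second share, while the medians over the 48 were -0.42 and -0.31. The difference between the lines grew with time. At 1 h, 20 members were lower and 3 members, HMMR, CDC20 and TPX2, were higher in CD47- cells, against 20.7% and 24.6% of all genes, and the median was -0.15. At 3 h, 36 were lower and HMMR alone was higher, against 20% and 23.1% of all genes, with a median of -0.35. Without the CD47- CD3+CD28+TSP1 library, 31 members were lower and 2 were higher at 3 h, against 18.8% and 22.6% of all genes. At 1 h, 23 were then lower and 5 higher, against 23.4% and 26.9% of all genes. At 6 h, 47 members were lower, none was higher and HMMR did not pass, against 21.6% and 21.8% of all genes, with a median of -0.88. The same libraries enter the comparisons over time and between lines, so these counts are not independent of each other.

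**Figure D3:**
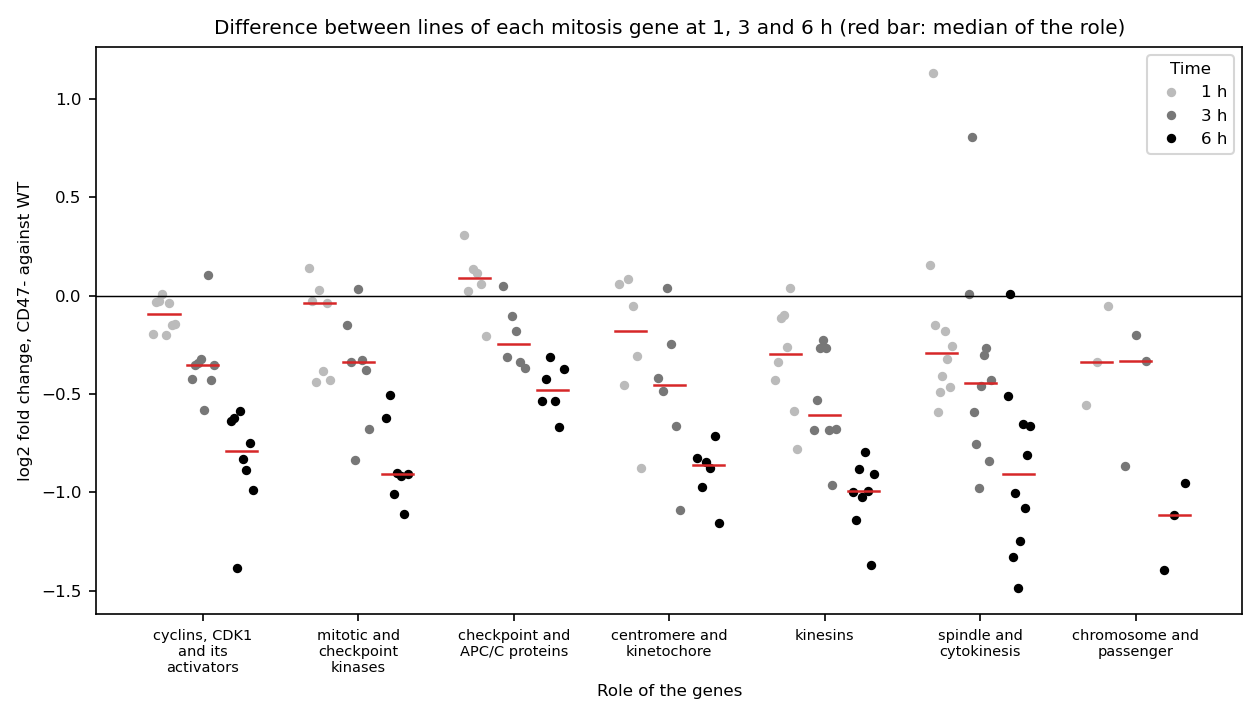
Log2 fold change of CD47- against WT (vertical axis) of each member at 1, 3 and 6 h (light to dark points), in columns by role, with the median of each role and time as a red bar. In 6 of the 7 roles the bars step down from 1 h to 3 h to 6 h, and in the chromosome and passenger group the step comes at 6 h.

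The cyclins, CDK1 and its activators comprised 8 members. From 1 h to 6 h in CD47- cells 7 of them fell, and in WT cells 3 fell and 1 rose. Counts by role and by list from 1 h to 6 h are to be read against all genes, of which 25.2% fell and 24.3% rose in CD47- and 23.6% fell and 24.8% rose in WT cells. The WT counts of this role are not far from those shares. In what follows, means are given with their SD (n = 4 at 1 h and 3 at each later time) and log2 fold changes with their SE, and values at 1 h are in the order CD3+CD28, CD3+CD28+TSP1, TSP1 and untreated, and values at 3 h and 6 h in the order of the first 3 of these. CCNB1 (chr5:69167135-69178245, plus strand in GENCODE 44 on GRCh38) encodes cyclin B1, the partner of CDK1 at mitotic entry. Its level was 283, 239, 237 and 212 CPM at 1 h, 252, 271 and 254 CPM at 3 h and 362, 359.6 and 387 CPM at 6 h in WT cells. The CD47- libraries gave 254, 232, 236 and 227 CPM, then 216, 153 and 240.0 CPM, then 236, 238 and 248 CPM. All 3 WT libraries at 6 h were above every other library, and the CD47- libraries at 1 h and 6 h overlapped. CCNB1 rose 1.52-fold in WT cells (log2 fold change 0.61 ± 0.11, adjusted p = 0.000109), and its change in CD47- cells was 0.02 ± 0.11 (adjusted p = 0.903). CCNB2 (chr15:59105126-59125045, plus strand), the other B-type cyclin, had the largest difference in time course between the lines. It stood at 150.2, 139, 142 and 132 CPM at 1 h, 132, 140.0 and 137 CPM at 3 h and 155, 155 and 157 CPM at 6 h in WT cells. In CD47- cells it went from 143, 133, 135 and 141 CPM through 115, 86.8 and 119.8 CPM to 59.5, 59.7 and 59.7 CPM. The lines overlapped at 1 h, and at 6 h the 3 CD47- libraries agreed within 1 CPM and lay at less than 0.5 of the lowest WT value. The fall in CD47- cells was 2.31-fold and the interaction was -1.35 ± 0.11 (adjusted p = 1.45e-07).

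CDK1 (chr10:60778331-60794852, plus strand), the kinase that these cyclins activate, was at 475, 386, 394 and 351 CPM at 1 h, 373, 372 and 358 CPM at 3 h and 319, 309.9 and 333 CPM at 6 h in WT cells. The corresponding CD47- values were 368, 340.1, 356 and 334 CPM, 271, 172 and 294 CPM and 182, 167 and 192 CPM. CDK1 fell in both lines from 1 h to 6 h, with log2 fold changes of -0.32 ± 0.13 in WT (adjusted p = 0.0410) and -0.96 ± 0.13 in CD47- cells (adjusted p = 3.46e-06), and the falls differed (interaction -0.63 ± 0.18, adjusted p = 0.0217). The WT fall of CDK1 did not pass under 6 settings and the interaction under 4, each of which left out 1 library except limma voom for the former, with adjusted p up to 0.0903. FOXM1 (chr12:2857680-2877174, minus strand), a transcription factor that activates G2 genes, was at 75.3, 70.03, 69.4 and 79.01 CPM at 1 h, 81.8, 90.3 and 87.00 CPM at 3 h and 80.4, 86.4 and 80.3 CPM at 6 h in WT cells, where neither comparison passed the test. CD47- cells had 60.9, 68.4, 72.8 and 63.2 CPM, 63.8, 80.5 and 58.6 CPM and 44.5, 42.6 and 37.7 CPM. All 3 CD47- libraries at 6 h were below every other library, and the CD3+CD28+TSP1 library at 3 h was the highest of its line. FOXM1 fell 1.59-fold by 6 h in CD47- cells (adjusted p = 5.73e-06). CDC25C, a phosphatase that activates CDK1, fell in both lines, from 32.8 ± 2.34 to 17.8 ± 0.590 CPM in WT and from 29.6 ± 2.23 to 10.6 ± 0.699 CPM in CD47- cells. Its relative CDC25B went from 57.1 ± 3.21 to 65.8 ± 3.09 CPM in WT cells without passing the test and fell from 55.5 ± 4.41 to 35.6 ± 0.677 CPM in CD47- cells. CCNF, a cyclin-like F-box protein, fell in CD47- cells from 116 ± 10.2 to 68.3 ± 3.60 CPM. CCNA2, the cyclin of S and G2 phase, fell in both lines, to 159.9 ± 7.45 CPM in WT against 103 ± 6.38 CPM in CD47- cells at 6 h.

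**Figure D4:**
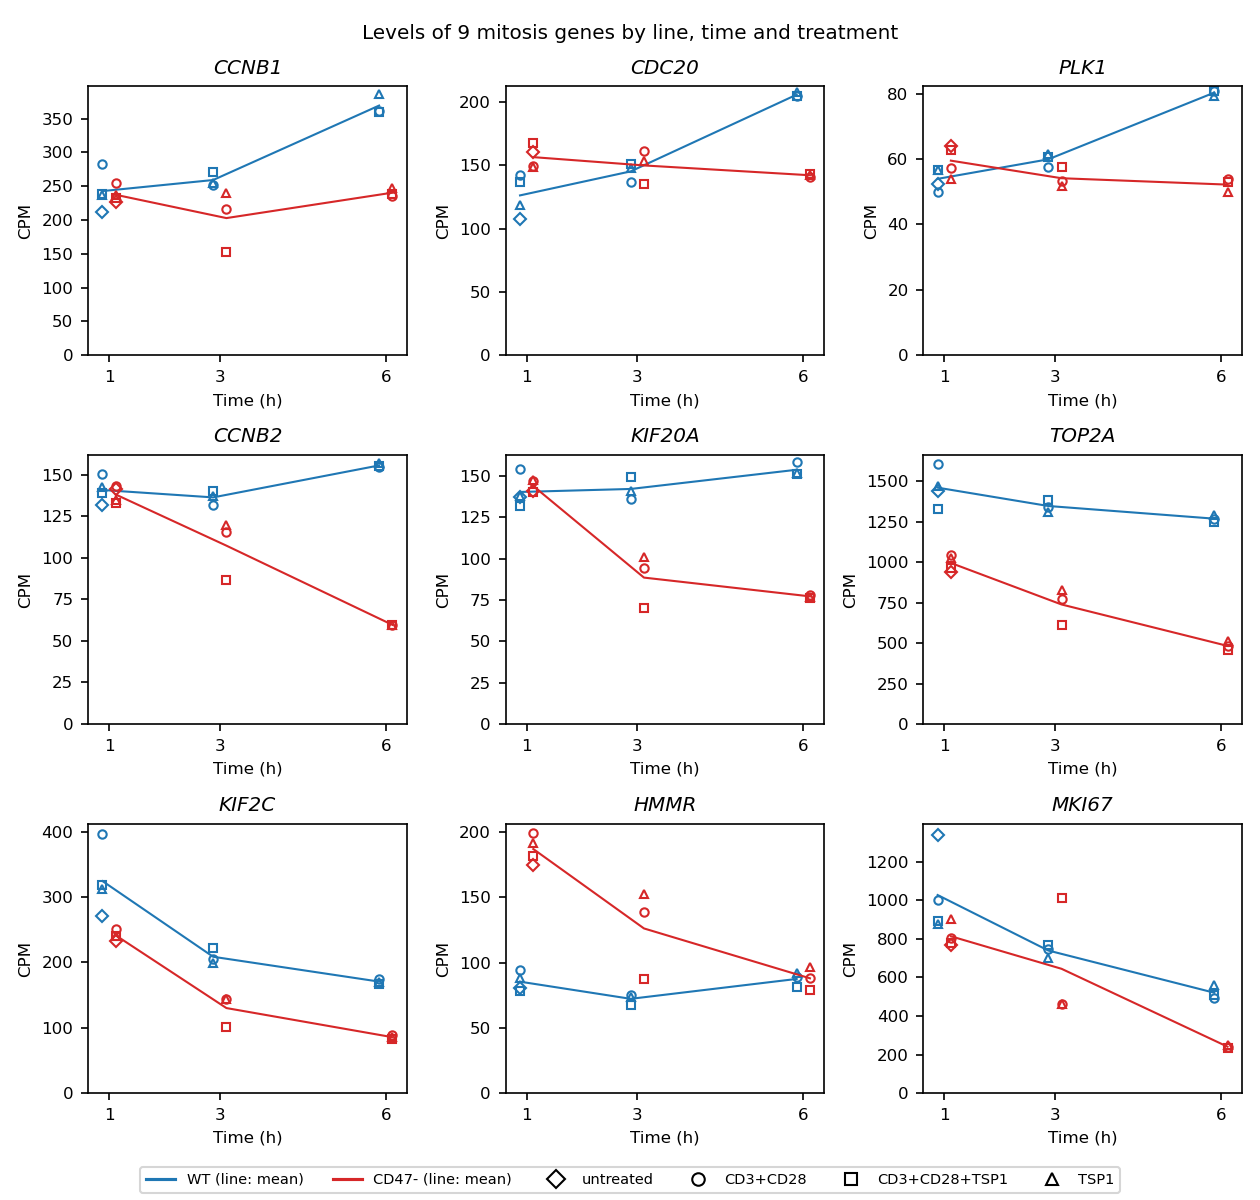
CPM (vertical axes, from 0) of 9 members against time (horizontal axes) in WT (blue) and CD47- cells (red). Each symbol is a library, its shape gives the treatment, and lines join the means at 1, 3 and 6 h. CCNB1, CDC20 and PLK1 climb in WT cells and not in CD47- cells, CCNB2, KIF20A and TOP2A fall in CD47- cells, and for MKI67 the CD47- CD3+CD28+TSP1 library at 3 h lies at 1010.2 CPM, away from its group.

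All 7 mitotic and checkpoint kinases fell from 1 h to 6 h in CD47- cells, whereas in WT cells 3 fell and 1 rose, and all 7 passed the interaction test. PLK1 (chr16:23677656-23690367, plus strand), a kinase needed for mitotic entry and centrosome maturation, was at 50.03, 56.5, 56.8 and 52.4 CPM at 1 h, 57.5, 60.6 and 61.7 CPM at 3 h and 80.8, 80.7 and 79.5 CPM at 6 h in WT cells. Levels in CD47- cells were 57.3, 62.8, 53.98 and 64.01 CPM, 53.2, 57.5 and 51.7 CPM and 53.8, 52.9 and 49.9 CPM. The WT libraries at 6 h were the highest of all 20, by a wide margin over their spread. PLK1 rose 1.49-fold in WT cells (adjusted p = 5.42e-07), and its fall in CD47- cells was small (-0.19 ± 0.07, adjusted p = 0.0257) and did not pass the test under 10 of the alternative settings, where its adjusted p ran from 0.0506 to 0.146. AURKA (chr20:56369389-56392337, minus strand), the Aurora kinase of spindle poles, was at 145, 127, 119 and 101 CPM at 1 h, 133, 139 and 134 CPM at 3 h and 105, 111 and 108 CPM at 6 h in WT cells, where the 1 h values overlapped those at both later times and every 6 h value was below every 3 h value. In CD47- cells it was at 122, 125, 119.6 and 115 CPM, 119, 85.1 and 117 CPM and 78.6, 74.04 and 75.4 CPM, and all 3 libraries at 6 h were below every other library. AURKA fell in CD47- cells by 6 h (-0.66 ± 0.10, adjusted p = 2.19e-05). Its interaction (-0.47 ± 0.15, adjusted p = 0.0336) did not pass under 15 of 28 alternative settings, with adjusted p up to 0.0963, among them leaving out any one library at 6 h of either line, the WT untreated, CD3+CD28+TSP1 or TSP1 library at 1 h, the CD47- CD3+CD28 or CD3+CD28+TSP1 library at 1 h, or the WT CD3+CD28 or CD3+CD28+TSP1 library at 3 h. AURKB, the Aurora kinase of the chromosomal passenger complex, had lower levels in CD47- cells at every time, 66.1 ± 3.30 against 89.5 ± 10.2 CPM at 1 h and 43.6 ± 1.83 against 87.6 ± 1.24 CPM at 6 h, and passed the test of the line difference over all libraries (-0.70 ± 0.11, adjusted p = 3.35e-05).

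BUB1 (chr2:110637528-110678063, minus strand), a kinase of the spindle checkpoint, was at 242, 204, 223 and 228 CPM at 1 h, 177, 177 and 183 CPM at 3 h and 233, 227 and 233 CPM at 6 h in WT cells. It fell by 3 h in WT cells (-0.32 ± 0.06, adjusted p = 0.000472) and at 6 h overlapped its 1 h values. The CD47- libraries gave 225, 214, 228 and 207 CPM, 144, 128 and 142 CPM and 110.2, 106 and 106 CPM, so that the 3 time groups did not overlap, and it fell 2.04-fold by 6 h (adjusted p = 9.97e-11). TTK (chr6:80003887-80042527, plus strand), the kinase that starts checkpoint signalling, had the largest fall of the members from 1 h to 3 h in WT cells. It was at 214, 173, 193 and 190.0 CPM at 1 h, 103, 99.8 and 107 CPM at 3 h and 110.4, 103 and 118 CPM at 6 h in WT cells, and at 154, 138, 152 and 147 CPM, 89.1, 63.9 and 93.9 CPM and 59.1, 53.6 and 62.3 CPM in CD47- cells. Its fall from 1 h to 3 h was 1.86-fold in WT (adjusted p = 1.36e-06) and 1.79-fold in CD47- cells (adjusted p = 3.59e-06), and the interaction at 3 h was 0.05 ± 0.14 (adjusted p = 0.878). Without the CD47- CD3+CD28+TSP1 library the fall in CD47- cells was 1.62-fold and the interaction 0.20 ± 0.10 (adjusted p = 0.350). NEK2 (chr1:211658657-211675630, minus strand), a centrosome kinase, was at 82.5, 76.2, 81.4 and 79.3 CPM at 1 h, 50.8, 44.8 and 47.3 CPM at 3 h and 54.8, 56.8 and 58.1 CPM at 6 h in WT cells, and at 83.1, 76.9, 85.4 and 80.8 CPM, 52.8, 35.7 and 57.4 CPM and 29.8, 28.9 and 32.2 CPM in CD47- cells. The lines overlapped at 1 h and 3 h and lay apart at 6 h, where NEK2 was 1.87-fold lower in CD47- cells (adjusted p = 1.81e-06). BUB1B, which encodes the checkpoint protein BUBR1, fell in both lines, to 190.4 ± 6.00 CPM in WT against 101 ± 4.98 CPM in CD47- cells.

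Among the 6 checkpoint and APC/C members, 2 rose and 2 fell from 1 h to 6 h in WT cells, near the shares of all genes, and 5 fell in CD47- cells. CDC20 (chr1:43358981-43363203, plus strand), the activator through which the APC/C starts anaphase, had the largest rise of the members in WT cells. It was at 142, 137, 118 and 107 CPM at 1 h, 137, 151 and 148 CPM at 3 h and 205, 205 and 208 CPM at 6 h in WT cells. CD47- cells had 149, 167, 148 and 161 CPM, 161, 135 and 153 CPM and 141, 143 and 143 CPM. At 1 h every CD47- library was above every WT library, and at 6 h every one was below. CDC20 rose 1.63-fold in WT cells (adjusted p = 6.49e-07), its change in CD47- cells was -0.14 ± 0.08 (adjusted p = 0.187), and the interaction was -0.84 ± 0.12 (adjusted p = 6.43e-05). UBE2C, the ubiquitin-conjugating enzyme of the APC/C, rose from 126 ± 13.9 to 155 ± 2.86 CPM in WT and fell from 137 ± 14.01 to 107 ± 2.68 CPM in CD47- cells. PTTG1, or securin, the inhibitor of separase, fell in both lines, to 119 ± 5.97 CPM in WT against 74.98 ± 1.91 CPM in CD47- cells at 6 h. ESPL1, separase itself, fell in both lines, with an interaction of -0.16 ± 0.10 and an interval of -0.36 to 0.03. BUB3 and MAD2L1, the latter encoding MAD2, had shallow falls in CD47- cells, -0.29 ± 0.10 and -0.40 ± 0.10, and neither passed the test in WT cells.

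All 6 centromere and kinetochore members fell in CD47- cells from 1 h to 6 h, and 5 of them fell in WT cells, with CENPA, the histone variant that marks centromeres, not passing there. CENPE (chr4:103105349-103198445, minus strand), a kinesin that moves chromosomes to the spindle equator, was at 367, 297, 326 and 350.0 CPM at 1 h, 322, 305 and 277 CPM at 3 h and 271, 255 and 219.7 CPM at 6 h in WT cells. Levels in CD47- cells were 269, 239.8, 249.5 and 219.5 CPM, 222, 189 and 234 CPM and 143, 99.2 and 137 CPM. The lines overlapped at no time, and the 6 h values were below all 1 h values in each line. CENPE fell 1.35-fold in WT (adjusted p = 0.00401) and 1.93-fold in CD47- cells (adjusted p = 1.07e-06). The difference between these falls (-0.52 ± 0.16, adjusted p = 0.0371) did not pass under 14 of 28 alternative settings, with adjusted p up to 0.138, which included upper-quartile and RLE scaling and leaving out any of 12 libraries of both lines in turn. SPC25 (chr2:168834132-168913371, minus strand), a subunit of the NDC80 complex that grips microtubules, was the member with the largest difference between the lines over all libraries. It was at 43.5, 39.2, 41.8 and 42.8 CPM at 1 h, 43.4, 45.5 and 43.7 CPM at 3 h and 29.5, 32.04 and 31.1 CPM at 6 h in WT cells, and at 25.02, 23.1, 22.5 and 20.7 CPM, 21.9, 18.6 and 21.8 CPM and 13.8, 14.2 and 13.6 CPM in CD47- cells. Every CD47- library was below every WT library, and SPC25 was 2.01-fold lower over all libraries (-1.01 ± 0.12, adjusted p = 7.28e-07). This difference was already present at 1 h (-0.87 ± 0.07), and its partners in the complex had values of -0.06 ± 0.10 at 1 h and -0.87 ± 0.12 at 6 h (NUF2) and of -0.31 ± 0.08 at 1 h and -0.71 ± 0.10 at 6 h (NDC80). CENPF, a large kinetochore protein, fell from 1111 ± 111 to 857 ± 36.2 CPM in WT and from 1178 ± 72.7 to 478 ± 54.3 CPM in CD47- cells.

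The 8 kinesins all fell from 1 h to 6 h in CD47- cells, whereas in WT cells 5 fell and KIF4A, a motor that binds chromosomes and the central spindle, rose from 124 ± 8.08 to 139 ± 2.87 CPM (adjusted p = 0.0481). KIF2C (chr1:44739818-44767767, plus strand), which takes microtubules apart at centromeres, was at 396, 319, 312 and 271 CPM at 1 h, 205, 222 and 199 CPM at 3 h and 175, 167 and 169.8 CPM at 6 h in WT cells. In CD47- cells it was at 252, 240.0, 241 and 233 CPM, 145, 102 and 144 CPM and 89.6, 82.1 and 85.1 CPM. No time group overlapped another within a line, and at every time the CD47- libraries were lower. The fall from 1 h to 6 h was 1.90-fold in WT (adjusted p = 9.74e-07) and 2.82-fold in CD47- cells (adjusted p = 1.65e-09). KIF23 (chr15:69414246-69448427, plus strand), a motor of the central spindle in cytokinesis, was at 302, 261, 259 and 252 CPM at 1 h, 179, 172 and 171 CPM at 3 h and 137, 132 and 135 CPM at 6 h in WT cells, and at 163, 156, 159.6 and 147 CPM, 118, 89.3 and 119.7 CPM and 74.3, 64.6 and 76.9 CPM in CD47- cells. It started lower in CD47- cells (-0.78 ± 0.08 at 1 h, adjusted p = 1.42e-07) and fell in both lines, 1.99-fold in WT and 2.17-fold in CD47- cells. KIF20B (chr10:89701590-89774939, plus strand), another cytokinesis motor, was at 229, 195, 211 and 244 CPM at 1 h, 248, 229.9 and 211 CPM at 3 h and 210.3, 216 and 189.9 CPM at 6 h in WT cells, with overlapping groups. The CD47- libraries gave 158, 141, 149 and 137 CPM, 119.8, 108 and 126 CPM and 87.1, 68.3 and 83.3 CPM, every library below every WT library (-0.89 ± 0.13 over all libraries, adjusted p = 4.51e-06). KIF20A, which carries the passenger complex to the central spindle, had the largest interaction of the members at 3 h. It was -0.72 ± 0.13 (adjusted p = 0.00294) and -0.57 ± 0.08 (adjusted p = 0.000449) without the CD47- CD3+CD28+TSP1 library, with 136, 149 and 141 CPM in WT against 94.6, 69.9 and 101 CPM in CD47- cells at 3 h, from 140.3 ± 9.83 and 144 ± 3.89 CPM at 1 h. KIF11, the motor that separates spindle poles, KIF14 and KIF18A fell in both lines, with CD47- means at 6 h of 148 ± 9.61, 90.2 ± 12.8 and 40.8 ± 2.05 CPM against 273 ± 3.87, 183 ± 10.8 and 70.7 ± 3.10 CPM in WT cells.

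All 10 spindle and cytokinesis members fell in CD47- cells from 1 h to 6 h and 8 of them fell in WT cells, the exceptions being HMMR and GTSE1. HMMR (chr5:163460203-163491941, plus strand), a hyaluronan receptor that also binds microtubules at spindle poles, was the only member higher in CD47- cells over all libraries. It was at 94.4, 78.2, 88.2 and 80.6 CPM at 1 h, 75.3, 67.5 and 73.9 CPM at 3 h and 88.7, 81.6 and 92.1 CPM at 6 h in WT cells. CD47- cells had 199.6, 181, 192 and 175 CPM, 139, 87.3 and 153 CPM and 88.4, 78.8 and 96.6 CPM. At 1 h every CD47- library was well above every WT library, and at 6 h the lines overlapped. HMMR was 2.19-fold higher at 1 h in CD47- cells (adjusted p = 1.40e-07) and its difference at 6 h was 0.01 ± 0.14, with an interval of -0.27 to 0.28. DLGAP5 (chr14:55148112-55191608, minus strand), which stabilises spindle microtubules near chromosomes, was at 265, 219, 237 and 243 CPM at 1 h, 204, 199 and 195 CPM at 3 h and 196, 189.9 and 198 CPM at 6 h in WT cells, and at 231, 217, 219 and 203 CPM, 143, 104 and 151 CPM and 79.4, 69.4 and 84.4 CPM in CD47- cells. The lines were close at 1 h and apart at 3 h and 6 h, and the fall by 6 h was 1.24-fold in WT and 2.80-fold in CD47- cells (interaction adjusted p = 1.02e-05). ANLN (chr7:36389821-36453791, plus strand), or anillin, the scaffold of the contractile ring, was at 270.3, 231, 247 and 267 CPM at 1 h, 191, 190.3 and 188 CPM at 3 h and 159.8, 158 and 162 CPM at 6 h in WT cells, and at 189.5, 185, 187 and 175 CPM, 108, 96.03 and 115 CPM and 95.1, 85.1 and 94.1 CPM in CD47- cells. Most of its fall in CD47- cells had come by 3 h (-0.79 ± 0.07, adjusted p = 8.56e-08, and -0.73 ± 0.07 without the CD3+CD28+TSP1 library). NUSAP1, a microtubule-binding protein, was the member with the largest difference between lines at 6 h, 119 ± 6.45 against 334 ± 5.93 CPM (2.80-fold lower, adjusted p = 4.59e-10). ASPM, a spindle pole protein, fell to 251 ± 30.9 CPM in CD47- against 595 ± 22.1 CPM in WT cells at 6 h, and PRC1, which bundles the central spindle, to 94.9 ± 3.09 against 189.9 ± 6.57 CPM. TPX2, the activator of Aurora A, began higher in CD47- cells (397 ± 14.7 against 356 ± 16.1 CPM at 1 h) and ended lower (217 ± 3.99 against 309 ± 8.78 CPM at 6 h). ECT2, which activates RhoA for cytokinesis, and CKAP2 fell in both lines, and GTSE1, which acts on microtubules and p53, fell in CD47- cells from 64.7 ± 2.94 to 41.7 ± 1.97 CPM, with an interaction against WT cells of -0.75 ± 0.12 (adjusted p = 0.000243).

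Of the chromosome and passenger members, TOP2A (chr17:40388525-40417896, minus strand), the topoisomerase that untangles sister DNA, was at 1605, 1327, 1468 and 1442 CPM at 1 h, 1344, 1386 and 1313 CPM at 3 h and 1266, 1249 and 1292 CPM at 6 h in WT cells. Levels in CD47- cells were 1047, 967, 1025 and 942 CPM, 774, 613 and 830.2 CPM and 483, 455 and 512 CPM. Every CD47- library was below every WT library, and the gap widened with time. TOP2A was 1.47-fold lower at 1 h and 2.63-fold lower at 6 h (adjusted p = 1.12e-05 and 2.85e-10). MKI67 (chr10:128096659-128126423, minus strand), which encodes Ki-67, the coat protein of mitotic chromosomes and a marker of cycling cells, had the largest spread relative to its mean of the members in any group. It was at 1004, 889.7, 875 and 1339.8 CPM at 1 h, 748, 769.7 and 700.2 CPM at 3 h and 491, 511 and 559 CPM at 6 h in WT cells. In CD47- cells it was at 805, 780.0, 901 and 766 CPM, 459.9, 1010.2 and 463 CPM and 239, 231 and 251 CPM. The WT untreated library and the CD47- CD3+CD28+TSP1 library at 3 h were the highest of their lines, and MALAT1 was at 7447 and 6015 CPM in them, its highest values in each line. In the other libraries MKI67 at 6 h was below all earlier values. MKI67 had the largest fall of the members by 6 h in CD47- cells, 3.38-fold (adjusted p = 5.64e-07), and fell 1.97-fold in WT cells (adjusted p = 0.000400). At 3 h in CD47- cells its change was -0.34 ± 0.20 (adjusted p = 0.199), and -0.82 ± 0.12 without the CD3+CD28+TSP1 library (adjusted p = 5.14e-05). BIRC5, which encodes survivin of the passenger complex, rose from 129 ± 8.34 to 181 ± 2.94 CPM in WT and fell from 124 ± 5.93 to 93.4 ± 3.53 CPM in CD47- cells.

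Other genes of the same processes were followed in 7 lists that share no gene with the members. All 23 other spindle, kinesin and cytokinesis genes fell from 1 h to 6 h in CD47- cells (median -0.82), and in WT cells 18 fell and 1 rose (median -0.36). CIT, the citron kinase of the midbody, had the largest fall in both lines, -1.57 ± 0.13 in CD47- and -0.88 ± 0.12 in WT cells on the log2 scale. Of 34 other kinetochore and centromere genes, 25 fell and 1 rose in CD47- cells (median -0.49) and 16 fell and 3 rose in WT cells (median -0.12). SPC24, the partner of SPC25, led the falls in CD47- cells, from 60.8 ± 1.60 to 21.2 ± 0.930 CPM. Of 8 condensin subunits, which compact mitotic chromosomes, 7 fell in each line, and NCAPG2 fell by nearly the same amount in both, -1.40 ± 0.06 and -1.39 ± 0.06. Of 17 APC/C subunits and regulators, 5 rose and 2 fell in CD47- cells and 7 rose and 1 fell in WT cells, where 24.3% and 24.8% of all genes rose and 25.2% and 23.6% fell. FBXO5, the APC/C inhibitor EMI1, had the largest change in CD47- cells (-1.01 ± 0.08) and the subunit ANAPC15 the largest in WT cells (0.95 ± 0.10).

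Of 6 CDK1 inhibitory kinases and partners, 5 fell in CD47- and 3 in WT cells. The largest changes were in CKS1B, a small CDK-binding protein (-1.04 ± 0.13 in CD47- cells), and CDC25A, an activating phosphatase (-1.08 ± 0.11 in WT cells). Of 12 DREAM and MuvB factors, 3 rose and 7 fell in CD47- and 5 rose and 4 fell in WT cells, the risers in CD47- cells being close to the share of all genes, and E2F5 rose in both (1.04 ± 0.12 and 1.06 ± 0.12). TFDP2, a dimerisation partner of E2F proteins, had the largest difference between the lines of that list, 97.9 ± 4.24 against 414 ± 5.38 CPM at 6 h. The 41 DNA replication and S phase genes fell for the most part in both lines, 28 in CD47- (median -0.45) and 30 in WT cells (median -0.45), with 1 riser in each. In the interaction test from 1 h to 6 h, 5 of these 41 genes were lower and 3 higher in CD47- cells, against 43 lower and none higher of the 48 mitosis members and 18 lower and none higher of the 23 other spindle genes. In the remaining lists none was higher, and lower genes numbered 11 of 34 for the other kinetochore genes, 5 of 8 for the condensins, 3 of 12 for the DREAM and MuvB factors, 1 of 6 for the CDK1 partners and 1 of 17 for the APC/C. Of all genes 9.27% were lower and 5.32% higher, so that the replication list and the APC/C list lay near the background. CCNE1, the cyclin of S phase entry, had the largest interaction of the replication list and in the opposite direction (1.19 ± 0.17, adjusted p = 9.32e-05), going from 14.4 ± 1.35 to 5.16 ± 0.350 CPM in WT and from 8.87 ± 0.552 to 7.27 ± 0.583 CPM in CD47- cells.

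Treatments were compared at matched times within each line, 3 libraries against 3. No member passed the test between CD3+CD28+TSP1 and TSP1 in WT cells (median -0.01), where 0.0925% of all genes passed, and none passed between CD3+CD28+TSP1 and CD3+CD28 (median -0.07), where 0% of all genes passed. At an unadjusted p under 0.05, 0 and 1 of the members passed in edgeR (4.79% and 2.27% of all genes), 0 and 1 in DESeq2 (3.45% and 1.29%) and 2 and 1 in limma voom (5.37% and 2.45%). Without the CD47- CD3+CD28+TSP1 library at 3 h, 5 and 4 members did so in edgeR (7.80% and 4.21% of all genes). In CD47- cells no member and 0% of all genes passed in either comparison, and the members' medians were -0.18 and -0.18, and 25 and 20 of the 48 had an unadjusted p under 0.05 in edgeR (14.3% and 10% of all genes), 27 and 24 in DESeq2 (12.8% and 8.55%) and 20 and 19 in limma voom (13.2% and 8.53%). With a time effect shared by both lines these counts were 4 and 2 members (7.05% and 5.31% of all genes). Without the CD3+CD28+TSP1 library at 3 h these medians were -0.07 and -0.07, and 15 and 7 members had an unadjusted p under 0.05 (8.42% and 2.99% of all genes). In that library CCNB1, CDK1 and CCNB2 were at 153, 172 and 86.8 CPM, below both of its companions, and CDC25B and MKI67 were at 78.6 and 1010.2 CPM, above both.

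Untreated cells were sequenced once in each line, at 1 h, so a line has no replicate of them, and no test across the lines was run. In WT cells all 3 treated libraries were above the untreated one for 20 of the 48 members and below it for 5, where 29.3% of all genes had all 3 above and 27.9% all 3 below. In CD47- cells they were above for 28 members and below for 5, against 29.9% and 25.3% of all genes. For CCNB1 the untreated library was the lowest at 1 h in each line, and for PLK1 it was the highest in CD47- cells at 64.01 CPM.

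The isoform counts were tested between the lines in the same way. Of 293 isoforms of the 48 members that passed the filter, 47 were lower and 2 higher in CD47- libraries, against 5.83% and 6.33% of all 75882 isoforms tested. No member had isoforms called in both directions, and 47 members had 2 or more isoforms in the test. The higher isoforms were both of HMMR: ENST00000393915.9, its main isoform, at 69.1 ± 7.03 CPM in WT against 112 ± 34.8 CPM in CD47- libraries (SD, n = 10 each), and ENST00000432118.6, listed at 0 in every WT library and at most 8.12 CPM in CD47- libraries. NUSAP1 and AURKB had the most lower isoforms, 5 each. For NUSAP1 the isoform ENST00000559596.6 was at 133 ± 18.3 CPM in WT against 49.4 ± 20.2 CPM in CD47- libraries and made up 32.5% ± 3.76 and 21.8% ± 4.94 of the gene's counts. Its share was thus also lower in CD47- libraries, a difference that was not tested and that can move with the splitting of reads between isoforms by RSEM.

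Per kilobase of transcript, the members spanned a wide range at 1 h in WT cells. TOP2A was highest at 260.2 ± 20.3 CPM per kb, followed by CDK1 (218 ± 28.5), PTTG1 (212 ± 26.1) and NUSAP1 (211 ± 14.4), whose spreads overlap. UBE2C (163 ± 17.96), PRC1 (134 ± 16.4) and CCNB1 (129 ± 15.7) came next. The lowest were ESPL1 (13.1 ± 0.526), CDC25C (17.2 ± 1.22) and CDC25B (19.2 ± 1.08). In CD47- cells at 1 h the highest was PTTG1 (221 ± 10.6), followed by CDK1 (190.1 ± 8.33), TOP2A (177 ± 8.75) and UBE2C (177 ± 18.2), and ESPL1 was again lowest (11.3 ± 0.520).

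Medians of the change over time were close between members with and without the promoter motif. The 19 members with a CHR element in the 100 bases before the start had a median log2 fold change from 1 h to 6 h of -0.96 in CD47- and -0.29 in WT cells, and the 22 without one had medians of -1.03 and -0.38. Of the promoters printed above, those of CDC20 and PLK1 belong to genes that rose in WT cells, those of MKI67 and CDC25C to genes that fell in both lines, and that of CCNB2 to a gene that fell in CD47- cells and did not pass the test in WT cells. All 5 hold the same pair of motifs, but they were chosen for a CHR element near the start. This is a description with no test, since the members were chosen by name and are not replicates of each other.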

How the data were processed

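Polyadenylated RNA of 20 libraries was sequenced as paired reads. Per the study's methods and the labels, adapters were removed by the authors with cutadapt 1.18, reads were mapped on hg38 by STAR 2.4.2a, and RSEM 1.3.3 gave the expected counts of genes and isoforms. The deposited expected counts were used as given, rounded to whole numbers. They divide reads among similar transcripts by estimate, and whether strand was used in counting is not given in the sources used here. Of the deposited columns, 2 belong to no sample of the series and were not used. The authors' batch correction was not repeated, since the batch is not named, and their limma voom with quantile normalization is among the alternatives.

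Genes were filtered with filterByExpr (minimum count 10) by line and time, scaled by TMM and tested with edgeR 4.0.16 in R 4.3.3 by the quasi-likelihood test with Benjamini-Hochberg adjustment over all 18387 genes at 0.05. The models held line alone, line and time, or line and treatment with time. No source used here says that libraries came from separate cultures, so p-values measure the spread between these libraries. Library depth was 16107921 to 31737616 counts, and the scripts were tested on simulated data. Alternatives were DESeq2 1.42.0, limma 3.58.1 voom with quantile normalization, other scalings and filters, replicate blocks and leaving out libraries. Values in every library are given for the 3 called members with the largest rise and the 3 with the largest fall in the comparison of lines and from 1 h to 3 h or 6 h in each line, for 10 members that represent the roles, and, chosen after their values were seen, for CCNB2, for KIF20A at 3 h and, as group means, for further members and the named isoforms. Each pathway list gives its called gene with the largest change, and the promoters shown hold a CHR element near the start. The members and lists were chosen with earlier results of these data known. Promoter sequences are from RefSeq on GRCh38.p14 and gene positions from GENCODE 44.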

Additional observations from a re-analysis of the deposited data

Results flagged for a closer look

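In 5 of 96 sets of 4 libraries at 1 h (48 members in 2 lines), a single library lay far from the other 3, where chance flags about 1 in 20 sets. In WT cells CDC25B was at 61.9 CPM in the CD3+CD28+TSP1 library against 55.3 to 55.6 CPM in the others. In the WT CD3+CD28 library PTTG1 was at 183 CPM against 144 to 147 CPM, PRC1 at 389 CPM against 303 to 316 CPM and NUSAP1 at 505 CPM against 438 to 447 CPM. That library had the lowest TMM factor of all libraries (0.881), which raises its CPM, and the part of this in these 3 values was not tested. In CD47- cells BIRC5 was lowest in the TSP1 library at 115 CPM, against 126 to 128 CPM in the others.

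The change over time differed between the lines by the interaction test of edgeR for 3 members from 1 h to 3 h and for 43 members from 1 h to 6 h, all lower in CD47- cells. At 6 h the interaction was largest for CCNB2 (-1.35 on the log2 scale) and smallest among those that passed for ANLN (-0.34).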

How the results depend on the processing

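Over time and between lines, counts of members were followed under the alternatives only for directions in which the model of the report called any member. The count of members higher at 3 h than at 1 h in WT cells was thus not followed, and was 4 without the CD47- CD3+CD28+TSP1 library at 3 h. For single named members that passed in the model of the report, 1353 values under alternatives kept the call and 65 lost it, all with the same sign. Members that had not passed, such as MKI67 at 3 h in CD47- cells, were not in this tally. The count of members lower in CD47- over all libraries (26) was 17 among the activated pairs and 3 among the unactivated pairs. Fewer libraries enter there, 11.3% and 6.6% of all genes were lower and the medians over the 48 were -0.42 and -0.31. It was 39 with a time term and also 39 with a replicate block that pairs the lines by treatment and time, where 26.9% and 24.7% of all genes were lower. What such pairs share beyond these labels is not given in the sources used here. Their deviations from the group means correlated between -0.30 and 0.15, above 0.1 in 1 of 10 pairs, and with so few libraries in a group this does not decide it. With another replicate block, for treatment within a line, whose pairing those correlations do not examine, the count of 3 members with an interaction from 1 h to 3 h became 6. It was 8 with DESeq2, 7 with limma voom and quantile normalization (together called voom here), 5 with upper-quartile factors, 6 with the filter of 1 CPM in every library, and 1 to 12 when leaving out single libraries. Of all genes, 1.64% were lower with that block, 3.5% with DESeq2, 2.31% with voom, 1.96% with upper-quartile factors and 3.51% with that filter. From 3 h to 6 h in WT cells, 11 members rose when the line was fitted alone (6 in the model of the report), near the 21.9% of all genes that rose. With voom 17 fell (11 in the model of the report), against 18.1% of all genes. At 3 h, voom called 3 members higher in CD47- cells, against 20.6% of all genes, and for isoforms it called 1 higher. Without a filter on low counts, 4 members passed for CD3+CD28+TSP1 against TSP1 and 3 against CD3+CD28 in CD47- cells, where none passed in the model of the report. Of all genes, 0.976% were then higher and 0.333% lower in the former comparison, and 0.81% and 0.165% in the latter. The 6 members rising from 1 h to 6 h in WT cells became 5 with DESeq2, RLE factors, no low-count filter or the 1 CPM filter, where 23.9%, 23.9%, 10.3% and 31% of all genes rose. They became 4 with upper-quartile factors, 8 with voom and 9 when the line was fitted alone, against 22.7%, 25.1% and 27.9% of all genes. Leaving out single libraries gave 4 to 10 members rising from 1 h to 6 h and 5 to 12 from 3 h to 6 h in WT cells, and 2 to 5 higher in CD47- cells at 1 h and 1 to 2 at 3 h. Each of these highest counts came without the CD47- CD3+CD28+TSP1 library at 3 h, where, in the same order, 26.7%, 21%, 26.9% and 22.6% of all genes were called. For the remaining alternatives the cause of a change was not tested. The lowest count of any member in a library was 241, and the part of depth in these results was not tested.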
